A study of Mus musculus with 5 samples.

Results

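The nuclear genes of oxidative phosphorylation were read here as all genes whose symbol starts with Nduf, Uqcr or Atp5 or with Cox followed by a digit from 4 to 8, without those marked -ps. The rule found 89 of the 31053 annotated rows, with 88 distinct symbols, because Atp5o is listed under 2 identifiers. By symbol they fell into 38 genes of complex I, 8 assembly factors of complex I, 8 genes of complex III, 18 of complex IV and 17 of the ATP synthase. No measured value entered the rule, though it was chosen with earlier results of these data known. In the gated cells 3 of the 89 had no UMI (unique molecular identifier, the count of captured RNA molecules), namely Cox7b2, Cox8c and the Atp5o entry ENSMUSG00000116933. The low-count filter left 86 genes in the endothelial, fibroblast and monocyte/macrophage comparisons and 81 in T cells.

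Oxidative phosphorylation couples the passage of electrons along respiratory complexes I to IV of the inner mitochondrial membrane to proton pumping, and the ATP synthase uses the returning protons to make ATP. Most subunits are encoded in the nucleus, made in the cytosol and imported, while a small set of core subunits is encoded by mitochondrial DNA, so each complex except complex II is a product of both genomes. Heart muscle is among the tissues richest in these complexes, and several subunits have a separate isoform in striated muscle (Cox6a2, Cox7a1, Cox8b) or in oxygen-sensing and perivascular cells (Cox4i2).

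The study prepared single-cell RNA libraries from mouse hearts to describe the cells of myocarditis caused by loss of immune checkpoint receptors. Control mice were Ctla4+/+Pdcd1-/- and diseased mice Ctla4+/-Pdcd1-/-, so both groups lacked Pdcd1 and they differed in 1 copy of Ctla4. Hearts of 4 control and 10 diseased mice were digested with enzymes and pooled. Cells that stained for DRAQ5 (a DNA dye) and not for DAPI (a dye kept out by intact membranes) were sorted into 2 control libraries (replicates 1 and 2) and 3 disease libraries (replicates 3, 4 and 5). Libraries were made with a kit that reads the 5′ end of each transcript. No age, sex or treatment was given in the sources used here, nor which mice went into which library. The p-values below therefore measure the spread between pooled libraries. Groups were taken from the library numbers in the sample titles, because the genotype and dye labels of successive samples differ by a rising last digit.

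The files held 6465 to 11358 barcodes and 24991704 to 55053988 UMIs per library. A barcode was kept from 500 UMIs and 200 genes upward if mt- genes gave no more than 10% of its UMIs, and kept cells had medians of 3368 to 4668 UMIs. Of the kept cells, 78.7 to 86.4% were gated into lineages from the UMIs of 9 marker lists that contain none of the 89 genes. Each of endothelial cells, fibroblasts, monocytes/macrophages, T cells, B cells, neutrophils and mural cells (pericytes and smooth muscle) had at least 20 cells in every library, and all but neutrophils had at least 50. The groups were tested in the first 4 lineages only. The thinnest of those 4 was the T cell gate of control replicate 2, with 78 cells. Without a limit on mt- UMIs, 2 cells of disease replicate 3 and none elsewhere reached the cardiomyocyte gate. Pairs of libraries shared 86 to 161 barcodes. RNA of other lineages was counted in the gates: the 6 T cell markers summed to 39.95 and 1.45 CPM in control fibroblasts and to 2.33, 145 and 41.3 CPM in disease, following the number of T cells in the library, and its part in the values below was not tested. Pdcd1 was counted at 79.0 to 1083 CPM (UMIs per 1000000 UMIs of the gated cells) in the T cell gates of all 5 libraries. Ctla4 was there at 433 and 76.2 CPM in control and at 141, 655 and 561 CPM in disease, so its level did not follow the loss of 1 copy. Where the 5′ tags of both genes lie relative to the deletions is not given in the sources used here, so these values do not check the genotype.

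In diseased hearts a small set of these genes was much lower in all 4 lineages tested, and none was called higher by the main test, edgeR. The set held Cox5a and Cox5b of complex IV, Ndufab1 and Ndufa10 of complex I, Uqcrfs1 of complex III and Atp5b of the ATP synthase, which passed the test (edgeR quasi-likelihood, Benjamini-Hochberg adjusted p under 0.05 over all genes tested) in endothelial cells, fibroblasts, monocytes/macrophages and T cells alike. Ndufaf6 passed in 3 lineages, Atp5s in 2 (fibroblasts and monocytes/macrophages), and Atp5d, Atp5j and Ndufb2 in endothelial cells. In all, 12 of 86 genes were called lower in at least 1 of the 4 lineages (14.0%), against 13.2% of all genes tested in any. Of the 81 tested in all 4 lineages, 6 were called in each (7.41%), against 3.98% of all genes so tested.

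These counts were near the share among all genes in endothelial cells and fibroblasts and somewhat above it in the other lineages. In endothelial cells 11 of 86 were called lower, against 11.9% of all genes tested. In fibroblasts 8 of 86 were called lower, against 12%. In monocytes/macrophages the count was 9 of 86 (10.5%), against 6.54%, and in T cells 7 of 81 (8.64%), against 4.83%. With every gene of at least 1 count the counts were 13 in fibroblasts (8.14% of all genes), 14 in monocytes/macrophages (5.91%) and 13 in T cells (6.14%), and with cells thinned to 1000 UMIs 11 of 72 in T cells (5.01%). Rises by the same test were rare in every lineage, at 0.349%, 0.335%, 0.0263% and 0.0105% of all genes in that order, and no gene of the set was among them. Whether these shares differ from the background was not tested, and what follows describes which of its genes were lower and by how much.

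**Figure D1:**
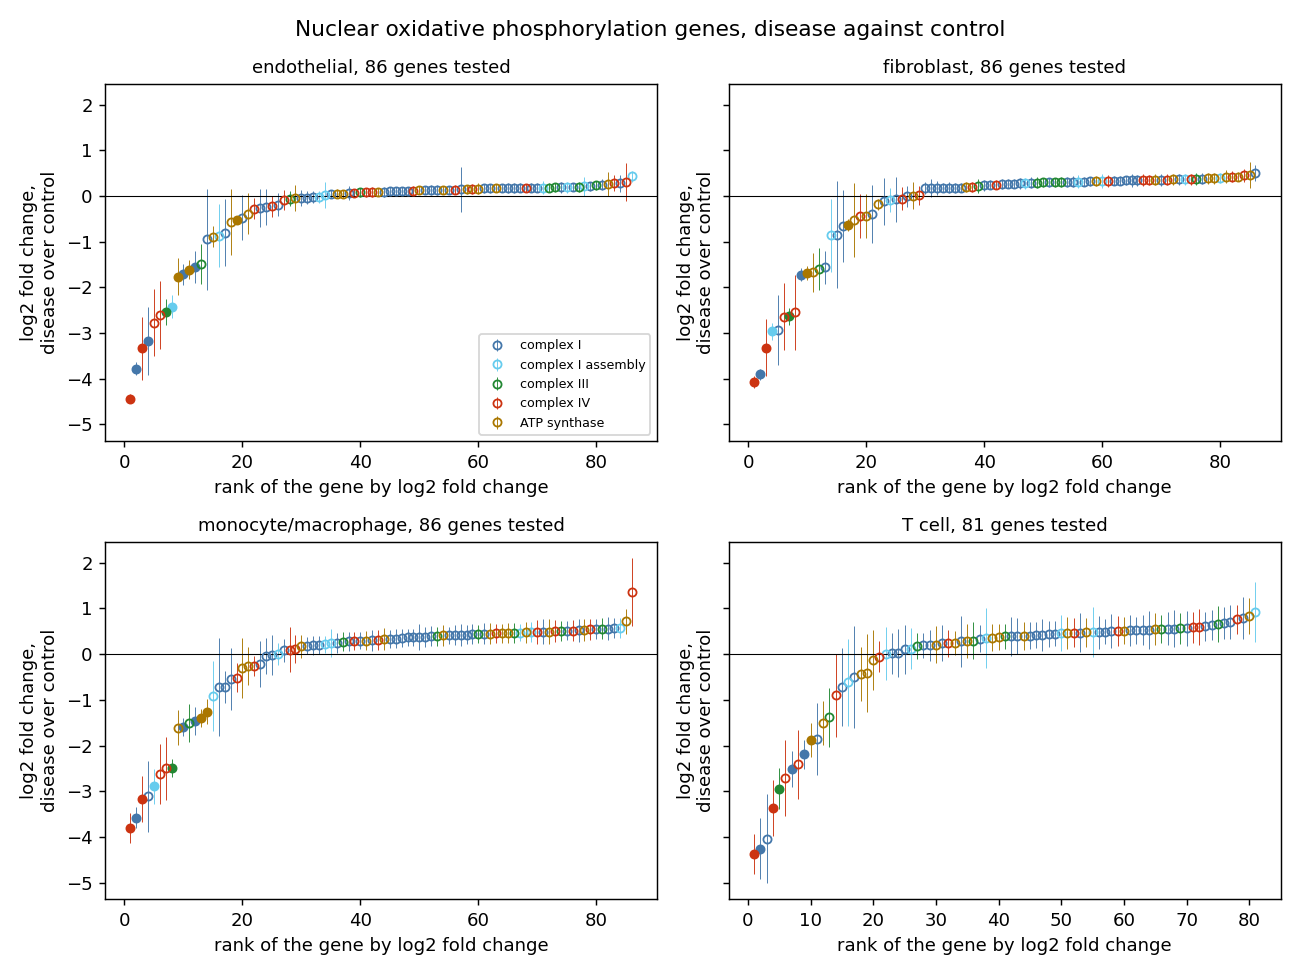
Log2 fold change of disease over control (vertical axis, bars are the standard error) of each gene tested, ordered by its fold change, in 4 lineages. Filled circles passed the edgeR test at an adjusted p under 0.05 and colours give the complex as assigned by symbol. A short tail of 13 or 14 genes lies below -1 in each lineage, and most of the others lie between -1 and 1, with 53, 59, 61 and 60 genes above 0 in endothelial cells, fibroblasts, monocytes/macrophages and T cells.

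Cox5a, a nuclear subunit of cytochrome c oxidase, showed the largest fall. In endothelial cells its level was 388 and 360 CPM in the control libraries and 17.9, 17.5 and 18.6 in disease replicates 3, 4 and 5. In fibroblasts it was 160 and 134 against 9.15, 9.04 and 8.83 CPM. The 3 disease libraries lay close together and far below both controls. The log2 fold changes were -4.44 ± 0.10 (SE) in endothelial cells, -4.08 ± 0.13 in fibroblasts, -3.81 ± 0.33 in monocytes/macrophages and -4.37 ± 0.44 in T cells. Their adjusted p (edgeR) ran from 0.00018 in endothelial cells to 0.0044 in T cells. B cells and mural cells, in which the groups were not tested, had 291 and 298.5 against 10.1, 7.93 and 24.4 CPM and 330 and 287 against 9.35, 23.3 and 7.66 CPM.

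Cox5b, a zinc-binding subunit of the same enzyme, fell with a wide spread among the disease libraries. In endothelial cells the controls held 517 and 482 CPM, and disease replicates 3, 4 and 5 held 98.3, 15.3 and 38.9 CPM. Replicate 4 was lowest and replicate 3 highest, and this order recurred in fibroblasts (317 and 298 against 59.8, 14.0 and 22.01 CPM). Its log2 fold change was -3.34 ± 0.70 in endothelial cells and -3.32 ± 0.61 in fibroblasts, with edgeR adjusted p of 0.031 and 0.023.

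Among complex I genes, Ndufab1, the mitochondrial acyl carrier protein that also sits in complex I, was at 147 and 132 CPM in control fibroblasts and at 10.2, 9.19 and 9.38 CPM in disease. The groups lay far apart in each of the 4 lineages, with log2 fold changes from -3.58 in monocytes/macrophages to -4.25 in T cells and an edgeR adjusted p of 0.00036 in fibroblasts. In T cells control replicate 2 held 8 UMIs of it and disease replicate 3 held 2. Ndufa10, an accessory subunit, fell less, from 74.3 and 65.0 to 24.8, 19.99 and 20.7 CPM in fibroblasts (log2 fold change -1.72 ± 0.14, edgeR adjusted p = 0.0015). The assembly factor Ndufaf6 was scarce in control, at 11.97 and 10.7 CPM in fibroblasts, and at 1.34, 1.47 and 1.66 CPM in disease. Its log2 fold change there was -2.96 ± 0.19 with an edgeR adjusted p of 0.00073. Ndufb2, an accessory subunit, went from 153 and 145 to 42.9, 6.91 and 11.04 CPM in fibroblasts. It was called in endothelial cells (edgeR adjusted p = 0.047) and had an adjusted p of 0.070 in fibroblasts.

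In complex III the Rieske iron-sulfur protein Uqcrfs1 was at 97.1 and 92.9 CPM in control fibroblasts and at 16.8, 12.3 and 18.2 CPM in disease. Its log2 fold change ran from -2.49 to -2.95 over the 4 lineages, with an edgeR adjusted p of 0.00098 in fibroblasts. The core protein Uqcrc1 was at 118 and 109 against 64.8, 22.3 and 29.3 CPM in fibroblasts, and did not pass in any of the 4 lineages (edgeR adjusted p of 0.090 to 0.38). The groups did not overlap in any of them, but replicate 3 stood between control and the other disease libraries.

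In the ATP synthase Atp5b, the catalytic beta subunit, was at 454 and 402 CPM in control fibroblasts and at 156, 121 and 136 CPM in disease (log2 fold change -1.68 ± 0.15, edgeR adjusted p = 0.0020). Atp5d, the delta subunit, was at 344 and 323 against 140, 52.0 and 132 CPM there. It was called in endothelial cells, with an edgeR adjusted p of 0.044, while that in fibroblasts was 0.066. Atp5j, coupling factor 6 of the peripheral stalk, had a small call in endothelial cells, from 1041 and 1049 to 776, 713 and 778 CPM (log2 fold change -0.53 ± 0.10, edgeR adjusted p = 0.020). In T cells its groups overlapped, at 498 and 234 against 352, 453 and 518 CPM. Atp5s, coupling factor B, was scarce in fibroblasts, at 12.9 and 11.8 against 8.34, 8.53 and 7.66 CPM (log2 fold change -0.64 ± 0.13, edgeR adjusted p = 0.034).

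Further genes of complex IV were far below control in every disease library and did not pass the test. Cox8a, the ubiquitous isoform of the smallest subunit, was at 733 and 701 CPM in control fibroblasts and at 246, 27.1 and 107 CPM in disease. The lowest control was still more than the highest disease library, yet the edgeR adjusted p was 0.12 with a log2 fold change of -2.55 ± 0.82. Cox6a1, the ubiquitous isoform of subunit 6a, was at 324 and 305 against 106, 16.8 and 33.9 CPM, with an edgeR adjusted p of 0.087. Counting by size, 13, 13, 14 and 13 genes had a log2 fold change below -1 in endothelial cells, fibroblasts, monocytes/macrophages and T cells, where 11.5%, 11.8%, 10.9% and 16.6% of all genes did.

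The disease libraries had an order of their own. Among the 86 genes with at least 100 UMIs in control fibroblasts, replicate 4 had 22 under 50% of the control mean, replicate 5 had 14 and replicate 3 had 11. Of all 10952 genes with as many UMIs, 17.8%, 13.2% and 10.8% were so in the same order. The same 11 genes were under 50% in all 3 disease libraries in endothelial cells and in fibroblasts, as were 8.77% and 8.85% of all genes, and in 8 of the 11 replicate 4 was lowest and replicate 3 highest. In endothelial cells and fibroblasts 7 further genes were under 50% in replicate 4 alone (Atp5a1, Atp5g3, Ndufaf8, Ndufb5, Ndufb9, Ndufs3 and Ndufs7, with 1 more in each lineage), as were 6.2% and 5.63% of all genes. In replicate 3 alone or replicate 5 alone 0 genes of the set were so, against 0.424 to 1.02% of all genes. Atp5g3, a gene for the c subunit of the rotor, shows the pattern: in fibroblasts it was at 498 and 462 CPM in control and at 506, 59.8 and 462 CPM in disease. Ndufs3, a core complex I subunit, was at 101 and 97.8 against 116, 12.8 and 66.2 CPM. Atp5a1, the alpha subunit, was at 289 and 294 against 289, 93.3 and 285 CPM. None of these 3 was called in any of the 4 lineages.

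**Figure D2:**
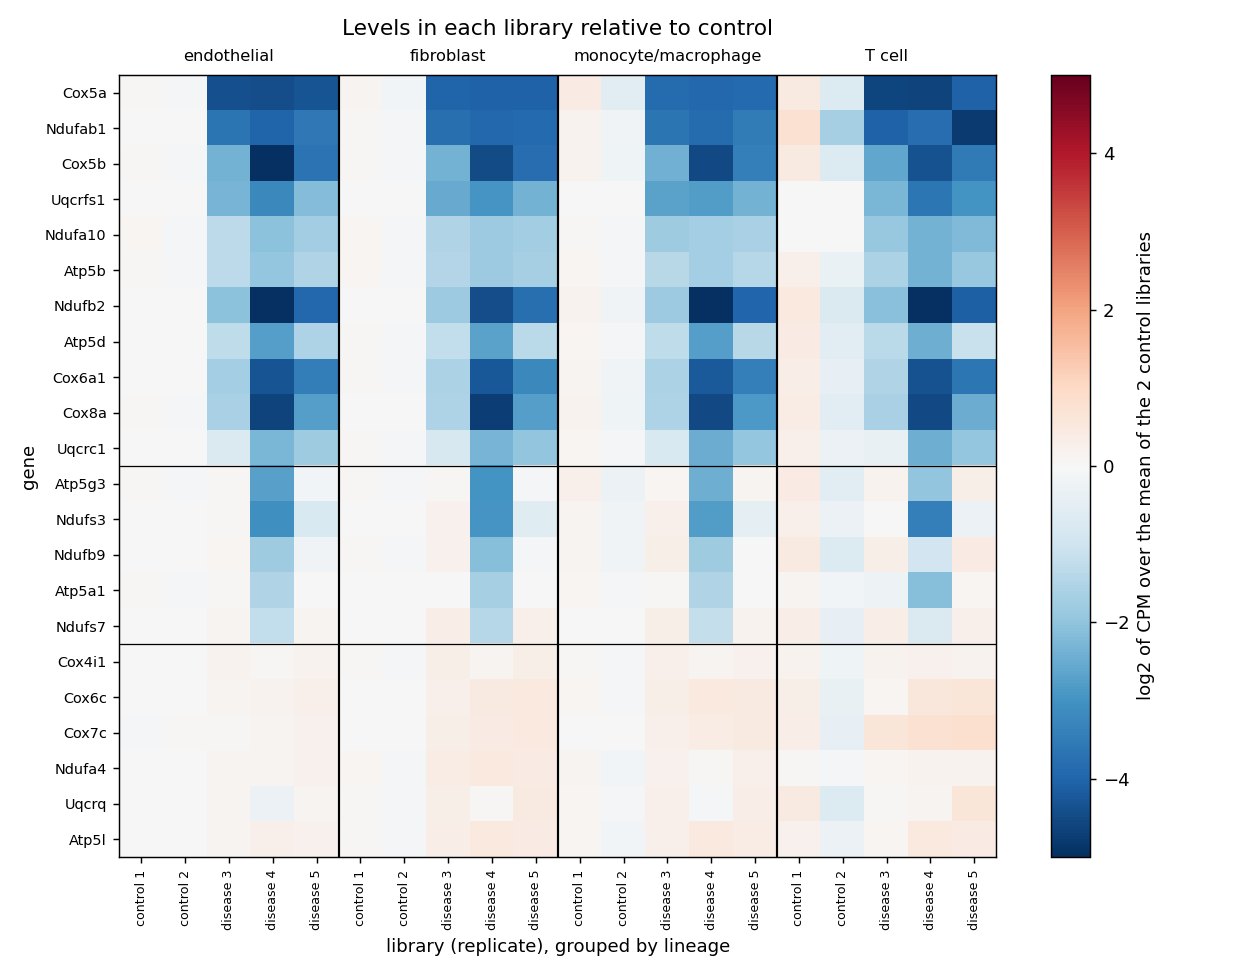
Level of 22 genes in each library, as log2 of CPM over the mean of the 2 control libraries (colour), in 4 lineages. The first 11 genes are low in the disease libraries of every lineage, the next 5 mainly in disease replicate 4, and the last 6 lie near the control level.

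The 3 genes of the c subunit encode the same mature protein with different import signals, so their shares can be set side by side. Atp5g3 gave 50.9 and 49.0% of their joint UMIs in control fibroblasts and 46.6, 7.73 and 40.7% in disease replicates 3, 4 and 5. Replicate 4 stood apart from the other 4 libraries in every lineage tested, with Atp5g2 at 55.9% in its fibroblasts against 29.8 to 35.0% elsewhere.

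Outside this tail the log2 fold changes lay on both sides of 0. In endothelial cells 53 of 86 were above 0, in fibroblasts 59, in monocytes/macrophages 61 and in T cells 60 of 81. The median log2 fold change over those tested was 0.09 in endothelial cells, 0.26 in fibroblasts, 0.32 in monocytes/macrophages and 0.39 in T cells, where the medians of all genes tested were -0.00, -0.00, 0.02 and 0.06. Cox6c of complex IV was at 555 and 533 CPM in control fibroblasts and at 654, 751 and 754 CPM in disease. Uqcrb of complex III was at 309 and 278 against 357, 420 and 400 CPM. In fibroblasts 54 of 86 genes were higher in every disease library than in both controls, against 25.5% of all genes. The counts were 41 of 86 in endothelial cells (25.4%), 41 of 86 in monocytes/macrophages (13.6%) and 19 of 81 in T cells (12.3%). In the other direction 16, 17, 16 and 13 genes did not overlap in endothelial cells, fibroblasts, monocytes/macrophages and T cells, against 24.1%, 24.5%, 22.6% and 19.9%.

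With all 5 libraries and the settings above, none of these differences passed the edgeR test as a rise. Most alternative settings of edgeR gave 0 calls as well, and those listed next gave 1 or 2. There was 1 in fibroblasts without disease replicate 3 (0.593% of all genes), 1 in T cells without control replicate 1 (0.287%) and 1 in endothelial cells with a trend on base composition removed (3.73%). Thinning cells to 1000 UMIs gave 2 in fibroblasts (0.493%) and 1 in monocytes/macrophages (0.0699%). In fibroblasts 36 genes were higher at an unadjusted p under 0.05, against 7.89% of all genes, and DESeq2 called 21 genes higher at an adjusted p under 0.05, against 2.54%. In endothelial cells, monocytes/macrophages and T cells the numbers at an unadjusted edgeR p under 0.05 were 1, 7 and 1, against 4.75%, 3.4% and 1.15%, and DESeq2 called 0, 0 and 0, against 1.18%, 0.307% and 0.0732%. For falls, DESeq2 called 13 genes in endothelial cells, 13 in fibroblasts, 13 in monocytes/macrophages and 10 in T cells, against 13%, 14.2%, 7.73% and 5.13%.

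Sums over the genes of a complex were not tested. Complexes were assigned by the start of the symbol, which put Ndufa4 and Ndufa4l2 under complex I. Complex IV genes together gave 4414 and 4183 CPM in control fibroblasts and 3846, 3700 and 3893 CPM in disease, without overlap. Complex III genes gave 1740 and 1658 against 1880, 1980 and 2000 CPM, and complex I genes 6184 and 5940 against 6963, 6155 and 6916 CPM. All 89 genes together gave 17504 and 16702 CPM in control and 17936, 16547 and 18413 CPM in disease fibroblasts, so the total overlapped. In endothelial cells the total was 24356 and 23994 CPM in control and 23320, 20847 and 23062 CPM in disease, lower in every disease library. It overlapped in monocytes/macrophages (16126 and 13799 against 15156, 14457 and 15400 CPM) and in T cells (22755 and 14617 against 18711, 19440 and 21356 CPM). The 12 genes called in any lineage went from 2250 and 2095 CPM to 867, 579 and 750 CPM in fibroblasts.

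The falls were not shown to differ between lineages. A test of the lineage by group terms (edgeR, library as a block) called 0 of 86 genes at an adjusted p under 0.05, against 0.0723% of all genes, and 4 had an unadjusted p under 0.05, against 6.48% of all genes. Atp5j came closest, at an adjusted p of 0.61.

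The starts of the coding sequences are shown because the kit captures the 5′ end of the transcript and because base composition near that end went with the size of the fall. Each line gives the first 60 coding bases, 5′ to 3′, from the longest protein-coding transcript in GENCODE M21 (mouse build GRCm38), with runs of 6 or more G or C in capitals. The first 4 genes were the ones with the deepest falls among those called in all 4 lineages. The last 4, called in none, were chosen after their values were seen, so the contrast between the sets is an illustration. The coding sequence starts 49 to 445 bases into these transcripts, with Cox7c at 445. The longest transcript need not be the one counted, and which transcript gave the tags of each gene was not checked.
Cox5a: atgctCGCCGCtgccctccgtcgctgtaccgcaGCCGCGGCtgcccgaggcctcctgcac
Ndufab1: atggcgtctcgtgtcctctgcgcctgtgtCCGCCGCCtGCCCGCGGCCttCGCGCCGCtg
Cox5b: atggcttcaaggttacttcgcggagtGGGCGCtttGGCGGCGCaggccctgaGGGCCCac
Uqcrfs1: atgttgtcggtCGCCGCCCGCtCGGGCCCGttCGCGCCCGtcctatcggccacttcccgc
Cox4i1: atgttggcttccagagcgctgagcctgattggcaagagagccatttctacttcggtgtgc
Cox7c: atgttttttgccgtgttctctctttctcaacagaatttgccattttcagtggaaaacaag
Ndufa4: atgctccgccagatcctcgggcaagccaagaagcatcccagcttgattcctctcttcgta
Uqcrq: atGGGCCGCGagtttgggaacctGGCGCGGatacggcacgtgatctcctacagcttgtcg
These bases lie in first coding exons at chr9:57521328-57521387 (plus strand) for Cox5a, chr7:122101763-122101822 (minus) for Ndufab1, chr1:36691587-36691646 (plus) for Cox5b and chr13:30545188-30545247 (minus) for Uqcrfs1. Those of Cox4i1 are at chr8:120669310-120669369 (plus), of Cox7c at chr13:86045843-86045902 (minus) and of Uqcrq at chr11:53430630-53430689 (minus), and those of Ndufa4 span 2 coding exons at chr6:11906091-11907365 (minus).

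Uqcrq had capitals too, 15 letters against 14 in Cox5a, so the runs alone do not separate the sets shown. Over all tested genes the share of G and C in these 60 bases had a median of 74.2% in the 6 genes called in all 4 lineages and 60.0% in the 74 called in none. The ranges overlap, at 66.7 to 75% in the former and 35 to 75% in the latter, of which 18 reached the lowest of the former. Within the first 400 bases of the transcript, the richest window of 50 bases held 80 to 88% in the former and 60 to 90% in the latter, which overlap.

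Over the first 300 bases of the same longest transcripts, the called genes had a median of 64.0% G and C in fibroblasts and the others 58.5%. The direction was the same over all genes tested in fibroblasts, where those called lower had a median of 68.3% against 60.3% overall. Across the 86 genes the log2 fold change in fibroblasts and this share had a Spearman correlation of -0.55, against -0.44 over all genes tested. In endothelial cells, monocytes/macrophages and T cells it was -0.51, -0.49 and -0.45, against -0.42, -0.37 and -0.43. The correlations are given as a description, since genes of 1 set of libraries are not independent. With the threshold of 55% chosen after the values were seen, none of the 25 genes under it had a log2 fold change below -1 in endothelial cells or fibroblasts, against 2.82% and 2.57% of all genes under it, while 13 of 61 at or above it did, against 14.6% and 15.3%. In monocytes/macrophages and T cells 1 of 25 under it did (4%, against 2.79% and 4.03% of all genes), and 13 of 61 and 12 of 56 at or above it (against 13.8% and 20.9%). With the trend of fold change on base composition removed, 10, 9, 7 and 6 genes were called lower in endothelial cells, fibroblasts, monocytes/macrophages and T cells, against 7.84%, 7.2%, 3.91% and 2.28% of all genes under the same correction. The part of base composition in the falls was not tested beyond this.

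**Figure D3:**
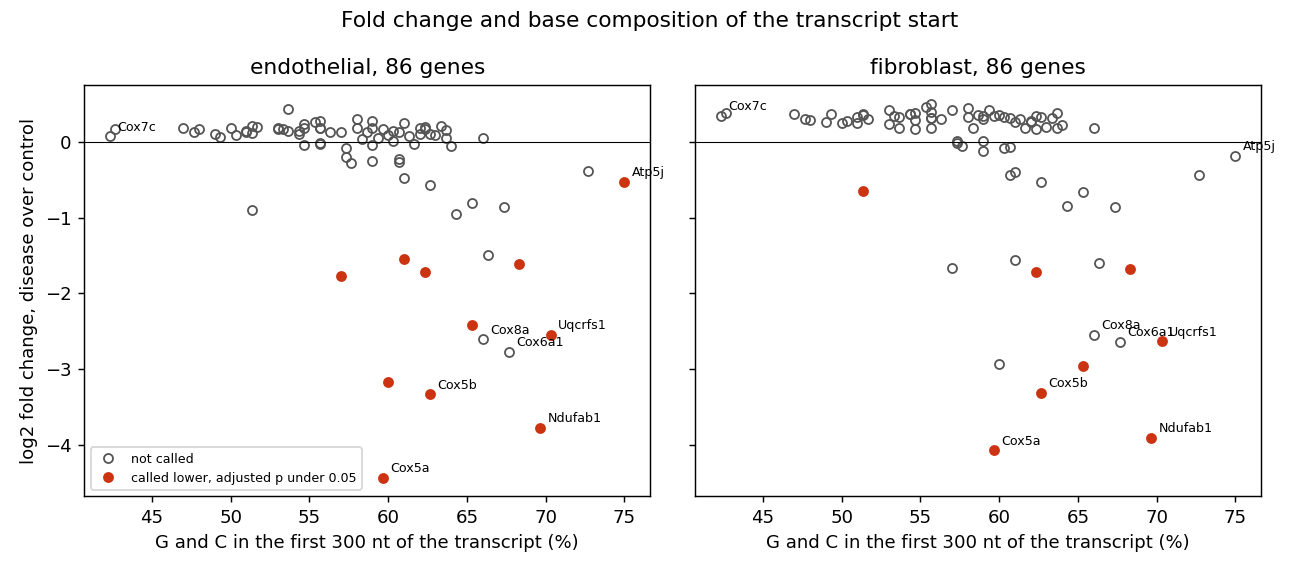
Log2 fold change of disease over control (vertical axis) against the percentage of G and C in the first 300 bases of the transcript (horizontal axis), for 86 genes in endothelial cells and fibroblasts. Red points were called lower by edgeR, and the longest transcript of each gene was used. Below 55% the points stay near 0 with Atp5s as the lowest, at -0.89 and -0.64, and the deep falls lie to the right.

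The 13 protein genes of mitochondrial DNA showed no called change beside the nuclear ones. All 13 had a fitted log2 fold change above 0 in each of the 4 lineages, with medians of 0.22 in endothelial cells, 0.16 in fibroblasts, 0.13 in monocytes/macrophages and 0.21 in T cells, and 0 passed the edgeR test. At an unadjusted p under 0.05 there were 0, 1, 0 and 1. The libraries differed: in CPM, disease replicate 4 was below the control mean for 11 of the 13 in endothelial cells, 9 in fibroblasts, 12 in monocytes/macrophages and 11 in T cells, while replicate 3 was below it for 0, 0, 1 and 0 and replicate 5 for 0, 0, 5 and 3. The largest difference was that of mt-Nd3, a complex I subunit, at 63.2 and 73.1 CPM in control fibroblasts and 128, 78.1 and 135 CPM in disease (log2 fold change 0.70 ± 0.26, edgeR adjusted p = 0.16). Replicate 4 lay near control and replicates 3 and 5 above it. mt-Co1, the catalytic subunit of complex IV, was at 6014 and 5308 against 7675, 6032 and 6655 CPM there.

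The mt- share of the groups overlapped in endothelial cells, where it was 4.07 and 3.48% of UMIs in control and 5.44, 3.33 and 5.04% in disease replicates 3, 4 and 5. The limit of 10% on mt- UMIs removed different numbers of cells: 75.3% of endothelial cells of replicate 3 passed it, and 95.3% of those of replicate 4. In mural cells 56.7 to 62.2% passed in the disease libraries and 78.5 to 87.9% in control. Without that limit the mt- share of mural cells was 6.25 and 5.35% in control and 7.94, 8.64 and 8.82% in disease, and with it 5.22 and 4.64% against 5.75, 5.60 and 5.43%, so their groups did not overlap either way. The nuclear genes, as a share of UMIs outside mt- genes, were at 2.54 and 2.49% in control endothelial cells and at 2.47, 2.16 and 2.43% in disease. UMIs of nuclear genes per mt- UMI ran from 0.43 in replicate 3 to 0.69 in control replicate 2 in these cells.

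**Figure D4:**
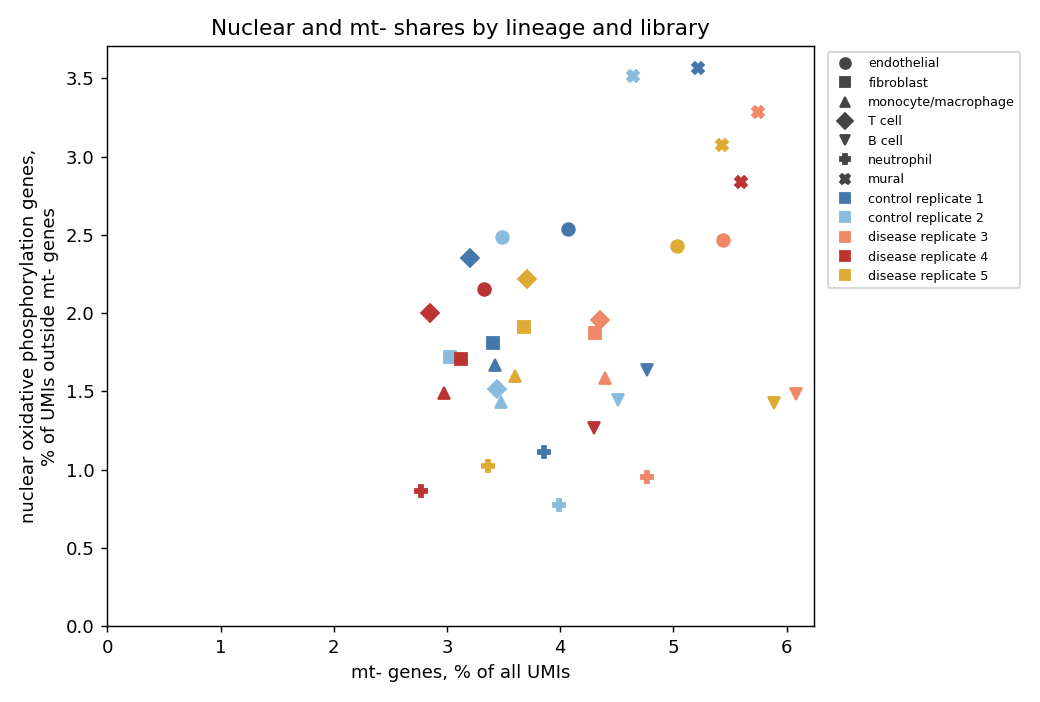
Nuclear oxidative phosphorylation genes as a percentage of UMIs outside mt- genes (vertical axis) against mt- genes as a percentage of all UMIs (horizontal axis), for 7 lineages (symbols) and 5 libraries (colours). Mural cells are highest on the vertical axis, at 2.84 to 3.57%, and neutrophils lowest, at 0.776 to 1.11%.

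Genes of the pathway outside the symbol rule were read from a list of 34. Of those tested, 6 of 32 were called lower in endothelial cells, 7 of 34 in fibroblasts, 5 of 33 in monocytes/macrophages and 3 of 30 in T cells by edgeR, against the 11.9%, 12%, 6.54% and 4.83% of all genes given above, and none was called higher. Cyc1, the cytochrome c1 of complex III, passed in all 4 lineages and was at 107 and 95.4 CPM in control fibroblasts and at 14.4, 13.9 and 15.7 CPM in disease (log2 fold change -2.83 ± 0.12, edgeR adjusted p = 0.00039). Cox11, a copper-delivery factor for complex IV, passed in all 4 as well, at 13.8 and 13.035 against 4.48, 1.47 and 3.24 CPM in fibroblasts. The complex IV assembly genes Cox18 and Sco2 and the ATP synthase assembly genes Atpaf1 and Tmem70 passed in 3 lineages each, and the mitochondrial RNA polymerase Polrmt in fibroblasts. Complex II, which has no mitochondrially encoded subunit, had 0 of 4 genes called in each of the 4 lineages. Its iron-sulfur subunit Sdhb was at 160 and 148 against 173, 148 and 177 CPM in fibroblasts, where the groups overlapped. Its flavoprotein Sdha was at 101 and 97.5 against 110, 127 and 112 CPM and its membrane anchor Sdhd at 74.7 and 73.2 against 91.5, 99.0 and 91.4 CPM there. Both were higher in every disease library than in both controls and neither was called (edgeR adjusted p of 0.35 and 0.13).

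The lineages were compared as well, each with the mean of the other 6 in a fit over 35 library and lineage sums with the library as a block. In mural cells 66 of 86 genes were higher, against 27.2% of all genes, and 3 were lower, against 17.7%. In endothelial cells 68 were higher (44.5%) and 5 lower (19.1%). In neutrophils 0 were higher (12.5%) and 75 lower (23.7%). T cells had 45 higher (33.2%) and 10 lower (28.3%), fibroblasts 33 higher (44.9%) and 14 lower (19.6%), monocytes/macrophages 22 higher (37.4%) and 4 lower (16.3%), and B cells 21 higher (24.8%) and 28 lower (22.8%). The median log2 difference of the 86 was 0.57 in mural cells, 0.47 in endothelial cells and -1.48 in neutrophils, where the medians of all genes were 0.08, 0.28 and -0.67. Neutrophils were also the lineage with the fewest UMIs per cell, at library medians of 1755 to 2615.

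Some of the lineage counts moved with single libraries or settings, given here with the share of all genes in the same fit. Without disease replicate 4, monocytes/macrophages had 8 genes higher (32.9%) and 12 lower (15.2%), and without replicate 3 or 5 they had 13 and 13 higher (32.4% and 34.4%). T cells had 6 lower without control replicate 1, disease replicate 3 or disease replicate 4 (22.6% in each), and mural cells 0 lower without disease replicate 5 (15.8%). With cells thinned to 1000 UMIs, monocytes/macrophages had 6 higher (35.5%) and 10 lower (10.9%), B cells 13 higher (22.4%) and 15 lower (18.5%), T cells 4 lower (18.8%) and endothelial cells 1 lower (16.2%). With a limit of 25% on mt- UMIs, or with none, monocytes/macrophages had 16 lower (17.0% in each) and mural cells 0 (19.5% and 19.6%). Library sizes without mt- genes gave 8 lower in endothelial cells (21.6%), 22 in fibroblasts (22.6%) and 10 in monocytes/macrophages (18.3%). At a gate purity of 95%, 3 were lower in T cells (16.7%), 1 in monocytes/macrophages (9.11%) and 1 in mural cells (13.6%), and 10 were higher in B cells (17.4%). With every gene of at least 1 count, 1 was lower in monocytes/macrophages (8.44%) and 12 higher in B cells (12.8%).

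Mural cells stood apart by a pair of isoforms. Cox4i2, the alternative subunit 4 isoform, was at 1317 and 1311 CPM in control mural cells, where disease gave 1419, 1508 and 1429 CPM. In endothelial cells it was at 22.6 to 32.9 CPM over the 5 libraries, in fibroblasts at 14.8 to 20.98, in monocytes/macrophages at 1.97 to 12.5 and in T cells at 0 to 1.46. The mural values were above every other lineage in every library, with a log2 difference of 8.01 ± 0.16 from the mean of the other lineages (edgeR adjusted p = 9.1e-33). Its partner isoform Cox4i1, the common form, was present everywhere, from 342 to 546 CPM in neutrophils to 1127 to 1346 CPM in mural cells. Cox4i2 gave 50.4 to 57.2% of the joint UMIs of both in mural cells and at most 2.93% in endothelial cells and 2.25% in fibroblasts. Each molecule gives 1 tag at its 5′ end in this kit, so these shares need no correction for length.

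Ndufa4l2, a paralog of Ndufa4 known to be induced by low oxygen, had a similar profile with a second site. It was at 1465 and 1420 CPM in control mural cells and at 1662, 1590 and 1459 CPM in disease. Fibroblasts were next, at 151 to 188 CPM over the 5 libraries, and endothelial cells were at 3.23 to 8.94 CPM. Against the mean of the other lineages it was higher by 7.33 ± 0.14 in mural cells and by 3.96 ± 0.16 in fibroblasts on the log2 scale (edgeR adjusted p of 4.0e-33 and 3.4e-23). It made up 79.1 to 82.9% of the joint UMIs with Ndufa4 in mural cells and 31.3 to 36.8% in fibroblasts. Ndufa4 itself was lower in mural cells than in the mean of the others (log2 difference -0.35 ± 0.10, edgeR adjusted p = 0.0042).

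The chosen transcripts of the paralogs shared only short runs of bases, and whether single reads could be told apart was not tested. The longest stretch shared by the transcripts was 14 bases for Cox4i1 and Cox4i2 and 28 bases for Ndufa4 and Ndufa4l2. The coding sequence around it is shown for both pairs, with the shared run in capitals, to show how soon the paralogs part.
Cox4i1: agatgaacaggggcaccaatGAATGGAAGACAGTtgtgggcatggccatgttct
Cox4i2: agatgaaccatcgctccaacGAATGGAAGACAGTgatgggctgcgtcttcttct
Ndufa4: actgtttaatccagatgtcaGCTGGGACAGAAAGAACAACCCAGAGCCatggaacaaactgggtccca
Ndufa4l2: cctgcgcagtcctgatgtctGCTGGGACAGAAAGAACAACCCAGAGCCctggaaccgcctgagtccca
The stretches are coding bases 275 to 328 of 507 in Cox4i1, 284 to 337 of 516 in Cox4i2, 111 to 178 of 246 in Ndufa4 and 126 to 193 of 261 in Ndufa4l2.

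In the mural gate, both sides carried the pair. Cells with a UMI of Myh11, the smooth muscle myosin, had Cox4i2 at 1026 to 1349 CPM over the 5 libraries. Cells without Myh11 and with a UMI of Kcnj8, Abcc9 or Vtn, the pericyte side, had it at 1778 to 2646 CPM, above the smooth muscle side in each library. Ndufa4l2 was at 1194 to 1530 and 1973 to 2548 CPM in the same order. With cells thinned to 1000 UMIs, 63.5% of mural cells of control replicate 1 held a UMI of Cox4i2 (66 of 104 cells, Wilson 95% interval 53.9 to 72.1%, counting error only), and 90.6% did unthinned. In T cells of the same library, which should lack it, 0 of 448 thinned cells did, and 3 of 449 (0.668%) did unthinned. At 3 counts the former allows up to 0.670% of cells with a UMI at that depth, which is no limit on the share expressing the gene. The medians were 4696 UMIs in mural cells and 5314 in T cells.

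Over the 35 library and lineage sums, the genes most like Ndufa4l2 by Pearson correlation of log2 CPM were Cox4i2 (r = 0.84), Ndufa7 (0.70) and Uqcr11 (0.68). Those most like Cox4i2 were Uqcr11 (0.86), Uqcr10 (0.85) and Ndufa4l2 (0.84). These are descriptions, since the sums share their libraries and lineages.

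**Figure D5:**
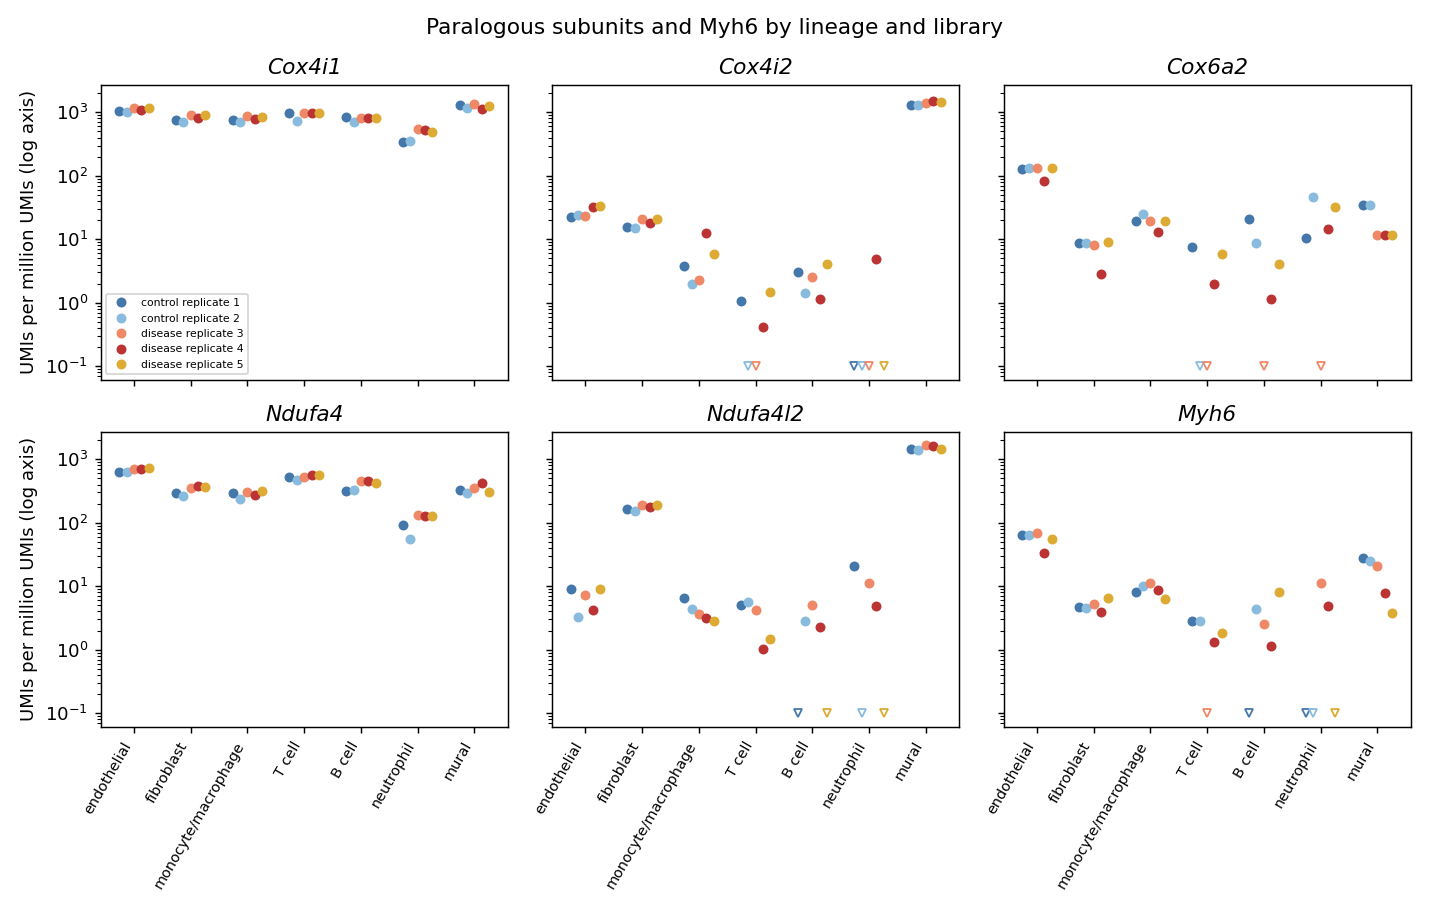
CPM (vertical log axis) of 5 subunit genes and of the cardiomyocyte gene Myh6 in 7 lineages, 1 point per library. Open triangles at the bottom stand for 0 UMIs. Cox4i2 is above 1300 CPM in mural cells and under 33 elsewhere, while Cox6a2 and Myh6 are both highest in endothelial cells.

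The muscle isoforms were counted mainly in the endothelial gate, together with cardiomyocyte RNA. Cox6a2, the heart and skeletal muscle isoform of subunit 6a, was at 128 and 132 CPM in control endothelial cells, where disease gave 133, 81.4 and 133 CPM. Replicate 4 was lowest in this gate for Cox6a2 and for all 8 cardiomyocyte genes summed, which were at 876 CPM there and at 1218 to 1260 CPM in the other 4 libraries. Cox8b (log2 difference 2.95 ± 0.13) and Cox7a1 (2.46 ± 0.15) were higher in endothelial cells than in the mean of the other lineages as well, with Cox6a2 at 3.34 ± 0.15 (edgeR adjusted p of 2.1e-21, 2.0e-17 and 7.9e-22). In fibroblasts, where the 8 cardiomyocyte genes gave 43.7 to 94.9 CPM, Cox6a2 was at 2.79 to 8.97 CPM. UMIs of Cox6a2 per UMI of Myh6, the cardiac myosin, were 1.94 to 2.44 in endothelial cells, 0.704 to 1.90 in fibroblasts and 1.51 to 3.03 in monocytes/macrophages. For Cox6a2 the endothelial and monocyte/macrophage ranges overlap, while the fibroblast range ends just under the endothelial one. Cox7a1 went the other way, at 0.692 to 0.980 per UMI of Myh6 in endothelial cells and 1.63 to 2.04 in fibroblasts. Cox8b was at 0.763 to 1.06 and 1.00 to 1.78 in the same order. In monocytes/macrophages Cox7a1 was at 0.974 to 2.48 and Cox8b at 0.763 to 1.69. All 8 cardiomyocyte genes were detected in the endothelial gate, and their part in these values was not tested further.

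The muscle isoforms were also read as a share of their pairs, and the differences between these shares were not tested. The partners Cox6a1 and Cox8a were lower in every disease library than in both controls but were not called. Cox6a2 was 18.6 and 19.6% of the joint UMIs with Cox6a1 in control endothelial cells and 43.7, 74.5 and 72.8% in disease replicates 3, 4 and 5. Cox8b was 6.43 and 7.81% of those with Cox8a and then 18.0, 53.6 and 35.2%. Cox7a1 was 4.51 to 7.89% of those with Cox7a2 over the 5 libraries. Cox6b2, the testis isoform of subunit 6b, was at most 2.83% of its pair in fibroblasts.

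Other genes differed between lineages as well. T cells were higher in Atp5d (log2 difference 1.12 ± 0.10), which was higher in B cells too (0.73 ± 0.11), in Ndufa4 (1.00 ± 0.09) and in Atp5g2 (0.96 ± 0.10), and lower in Uqcr11 (-0.65 ± 0.10), than the mean of the other lineages by edgeR. B cells were higher in Uqcrfs1 (0.82 ± 0.20) and Ndufb11 (0.81 ± 0.10) and lower in Ndufb9 (-1.21 ± 0.14). Monocytes/macrophages were higher in Ndufc2 (0.68 ± 0.11), which was lower in B cells (-0.93 ± 0.14). Fibroblasts were higher in Ndufb2 (0.95 ± 0.16) and lower in Cox5a (-0.89 ± 0.15) and Ndufb7 (-0.60 ± 0.08), and Ndufb2 was higher still in mural cells (1.67 ± 0.19). In neutrophils the largest deficits among genes with a mean of at least 5 log2 CPM there were those of Atp5o (-2.57 ± 0.20), Ndufa11 (-2.48 ± 0.22) and Atp5a1 (-2.28 ± 0.21). Since Atp5d, Cox5a, Ndufb2 and Uqcrfs1 were called lower in disease in at least 1 lineage, these lineage differences are averages over 2 control and 3 disease libraries.

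The counts of falls depended on single libraries, and the shares among all genes moved with them. Without disease replicate 5, 5 genes were called lower in endothelial cells, 3 in monocytes/macrophages and 0 in T cells, against 6.55%, 1.57% and 0% of all genes in the same fits. Without disease replicate 4, 2 were called in T cells (1.14%). Without disease replicate 3, 14 were called in monocytes/macrophages (8.16%). Without control replicate 1 or 2, 6 and 6 were called in endothelial cells (9% and 5.89%) and 3 and 5 in monocytes/macrophages (2.11% and 2.09%), and 3 in T cells without control replicate 1 (2.47%). A control group of a single library is assumed to vary like the disease libraries.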

How the data were processed

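Gene by cell UMI counts of 5 libraries were used as deposited by the authors, in filtered matrices whose file headers name Cell Ranger 3.1.0. The submitters' processing notes name Cell Ranger 3, Seurat 3 and the builds mm10 and GRCh38 without a role, and the 10x 5′ kit is given per the labels' protocols. Cells were gated where at least 3 UMIs of at least 2 marker genes were present and at least 80% of marker UMIs came from 1 list. No doublet caller was run, so doublets of 1 lineage remain. Counts were summed per library and lineage and tested with edgeR 4.0.16 (R 4.3.3; TMM, filterByExpr, quasi-likelihood), disease against control in 4 lineages with at least 50 cells per library (B and mural cells also reached 50 and were not tested), and lineage levels with library as a block in those with at least 20. Python 3.11.15 was used for sums. The scripts were tested on simulated data. Named were all genes of the set as needed, the 8 largest called falls and rises per comparison and the 3 largest differences per lineage and direction whose mean reached 5 log2 CPM, and fixed isoform pairs. The members and lists were chosen with earlier results of these data known. Alternatives were DESeq2 1.42.0, no count filter, other mt- limits (25% or none), gate purities of 60 and 95%, library sizes without mt- genes, cells over 3 times the median left out, thinning to 1000 UMIs, removal of a GC trend, and each library left out. Intervals cover counting error only. Results of 1 gene of the set are not reported here by name, though it is included in the counts and sums.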

Additional observations from a re-analysis of the deposited data

How the results depend on the processing

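Counts of genes called lower in disease moved to 13 in fibroblasts with DESeq2 (14.2% of all genes). With every gene of at least 1 count they moved to 13 in fibroblasts (8.14%), 14 in monocytes/macrophages (5.91%) and 13 in T cells (6.14%). In T cells thinning to 1000 UMIs gave 11 (5.01%). Genes called higher numbered 21 in fibroblasts with DESeq2 (2.54% of all genes) and 1 in endothelial cells with the GC trend removed (3.73%). With thinning they numbered 2 in fibroblasts (0.493%) and 1 in monocytes/macrophages (0.0699%). With 1 library left out, 5 to 14 genes were lower in endothelial cells (5.89 to 11.8% of all genes), 6 to 12 in fibroblasts (5.18 to 12.7%), 3 to 14 in monocytes/macrophages (1.57 to 8.16%) and 0 to 10 in T cells (0 to 5.00%), and 0 to 1 were higher in fibroblasts and in T cells. For lineage levels, the shares of all genes under each setting are those given above. Library sizes without mt- genes gave 8 lower in endothelial cells, 22 in fibroblasts and 10 in monocytes/macrophages. Thinning gave 1 lower in endothelial cells, 6 higher and 10 lower in monocytes/macrophages, 4 lower in T cells, and 13 higher and 15 lower in B cells. A purity of 95% gave 1 lower in monocytes/macrophages, 3 in T cells, 1 in mural cells and 10 higher in B cells. With every gene of at least 1 count, 1 was lower in monocytes/macrophages and 12 higher in B cells. A mt- limit of 25% gave 16 lower in monocytes/macrophages and 0 in mural cells, and no limit gave 16 and 0. With 1 library left out, lineage counts in monocytes/macrophages ran from 8 to 21 higher (32.4 to 36.1% of all genes) and 3 to 12 lower (14.5 to 16.1%). They ran from 6 to 8 lower in T cells (22.6 to 26.3%) and 0 to 3 lower in mural cells (15.5 to 17.6%). The causes were not tested.

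Among single genes, 360 disease values stayed on the same side of the threshold and 45 lost their call without a change of sign, and 2050 and 293 lineage values did so. The disease values are those of 27 named results that were picked as called, so they do not describe the other genes of the set. In 5 lineage values the sign turned. At a purity of 95% these were Atp5l in B cells (-0.070), Cox7a1 in T cells (0.19), and Ndufa4l2 in endothelial cells (0.030) and in monocytes/macrophages (0.074). With thinning it was Cox5a in monocytes/macrophages (-0.014). No paired analysis was possible because the control replicates are numbered 1 and 2 and the disease replicates 3, 4 and 5, so no number is shared. Only 2 control libraries of pooled hearts were compared, and T cell values of control replicate 2 rest on 78 cells.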

Other observations

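Promoters were searched on both strands for motifs of factors known to act on respiratory genes, in RefSeq windows of 300 bases (GRCm38.p6) that matched 72 of the 89 genes. The NRF1 motif with 1 free base was found in 23.7% of 76 promoters of the set and in 4.60% of all 32851. The YY1 motif AAGATGGCG was in 10.5% and 1.40%, the ETS motif CCGGAAG in 21.1% and 8.86%, and the ERR motif TGACCTT in 9.21% and 4.72%. The windows of the 6 genes called lower in all 4 lineages held none of these letters, which says nothing about the factors.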
